A study of Mus musculus with 12 samples.

Results

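The 40 genes described here encode the machinery of G2 and mitosis. They were taken as a list of symbols, and all 40 were found among the 25208 genes of the deposited table. They were measured by RNA sequencing of mpkCCDc11 cells, a clonal mouse line derived from the cortical collecting duct of the kidney, in 4 groups of 3 libraries. The groups were Ctnnb1 siRNA with dDAVP, Ctnnb1 siRNA with vehicle, control siRNA with dDAVP, and control siRNA with vehicle. Each siRNA was used at 50 nM, and dDAVP, a vasopressin analog selective for the V2 receptor, was given at 1 nM to the basolateral side for 24 h. In every group the cells had grown on permeable filters for 4 days and had then been kept for 24 h without serum or hormones. Ctnnb1 encodes beta-catenin, a junction protein and the transcriptional effector of Wnt signalling. The design poses the question of how vasopressin signalling and the loss of beta-catenin, alone and together, alter expression. All cells came from 1 clone, and the knockdown was partial.

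Genes of G2 and mitosis are transcribed late in the cell cycle. In non-cycling cells and in G1 many of them are held down by the DREAM complex, in which the MuvB core joins RB-like proteins, and in G2 they are switched on by MuvB with B-MYB and FOXM1. Whether this control is intact in mpkCCDc11 cells was not tested. MuvB binds a cell cycle homology region (CHR) near the start of many of these genes, and the factor NF-Y binds CCAAT boxes upstream of it. The products act in order. Cyclins and CDK1 start mitosis, Aurora, Polo and NEK kinases build the spindle, and the checkpoint holds anaphase until kinetochores are attached. CDC20 then activates the anaphase-promoting complex (APC/C), with UBE2C as its ubiquitin-conjugating enzyme, and PRC1, ECT2 and anillin organise cytokinesis. The summed RNA of such genes is widely used as a measure of how many cells are cycling. In bulk RNA, fewer cycling cells and less of these RNAs per cycling cell cannot be told apart.

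The promoters of 7 of the genes are shown to let the elements counted below be seen in place. RefSeq promoters on GRCm38.p6, from 250 bases before to 50 bases after the annotated start, were at hand for 34 of the 40 genes. Those of Ccnb1 and Ccnb2 (B-type cyclins), Cdk1, Plk1, Cdc20 and Bub3 were chosen to represent different roles, and that of Top2a was added after its values were seen. Capitals mark matches to the CHR (TTTGAA or TTCGAA) and to the CCAAT box (CCAAT), each on either strand, so that TTCAAA and ATTGG are the same elements read on the other strand. The Ccnb1 promoter lies at chr13:100786437-100786736 on the minus strand, that of Ccnb2 at chr9:70421505-70421804 on the minus strand, and that of Cdk1 at chr10:69352863-69353162 on the minus strand. The Plk1 promoter lies at chr7:122159185-122159484 on the plus strand, that of Cdc20 at chr4:118437294-118437593 on the minus strand, that of Bub3 at chr7:131560120-131560419 on the plus strand, and that of Top2a at chr11:99024140-99024439 on the minus strand.
Ccnb1: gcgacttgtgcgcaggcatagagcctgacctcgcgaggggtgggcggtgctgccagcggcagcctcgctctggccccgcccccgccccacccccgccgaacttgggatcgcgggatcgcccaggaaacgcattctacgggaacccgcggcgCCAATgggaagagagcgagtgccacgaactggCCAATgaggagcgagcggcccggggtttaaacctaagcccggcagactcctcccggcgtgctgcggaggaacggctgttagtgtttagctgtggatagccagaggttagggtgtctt
Ccnb2: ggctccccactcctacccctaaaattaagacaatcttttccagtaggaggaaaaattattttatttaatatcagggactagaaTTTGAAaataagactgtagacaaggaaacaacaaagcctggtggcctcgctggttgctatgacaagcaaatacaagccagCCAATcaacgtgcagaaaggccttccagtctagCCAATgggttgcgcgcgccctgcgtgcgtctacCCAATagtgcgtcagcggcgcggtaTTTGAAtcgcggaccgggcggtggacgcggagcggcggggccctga
Cdk1: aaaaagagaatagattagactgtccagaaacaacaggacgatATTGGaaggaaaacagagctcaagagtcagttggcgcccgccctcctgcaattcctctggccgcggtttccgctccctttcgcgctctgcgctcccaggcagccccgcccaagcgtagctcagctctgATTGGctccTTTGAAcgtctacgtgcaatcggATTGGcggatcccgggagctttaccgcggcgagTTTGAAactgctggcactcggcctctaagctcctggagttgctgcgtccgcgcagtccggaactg
Plk1: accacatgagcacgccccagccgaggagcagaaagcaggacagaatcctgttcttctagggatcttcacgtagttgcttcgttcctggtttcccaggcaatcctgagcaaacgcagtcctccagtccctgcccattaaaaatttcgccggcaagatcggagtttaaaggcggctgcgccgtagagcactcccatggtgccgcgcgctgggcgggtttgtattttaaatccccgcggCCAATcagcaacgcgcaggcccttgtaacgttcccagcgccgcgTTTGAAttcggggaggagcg
Cdc20: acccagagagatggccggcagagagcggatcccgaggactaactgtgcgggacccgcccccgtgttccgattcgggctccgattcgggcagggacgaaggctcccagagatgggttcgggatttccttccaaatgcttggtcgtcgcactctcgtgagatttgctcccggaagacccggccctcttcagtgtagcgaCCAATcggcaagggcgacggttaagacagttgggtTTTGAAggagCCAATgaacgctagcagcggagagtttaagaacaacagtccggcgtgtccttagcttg
Bub3: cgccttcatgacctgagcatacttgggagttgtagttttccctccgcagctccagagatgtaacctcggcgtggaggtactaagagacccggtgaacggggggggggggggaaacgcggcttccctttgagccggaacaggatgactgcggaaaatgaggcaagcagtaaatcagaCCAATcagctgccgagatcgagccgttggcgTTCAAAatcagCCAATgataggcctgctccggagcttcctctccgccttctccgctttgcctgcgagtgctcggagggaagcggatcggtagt
Top2a: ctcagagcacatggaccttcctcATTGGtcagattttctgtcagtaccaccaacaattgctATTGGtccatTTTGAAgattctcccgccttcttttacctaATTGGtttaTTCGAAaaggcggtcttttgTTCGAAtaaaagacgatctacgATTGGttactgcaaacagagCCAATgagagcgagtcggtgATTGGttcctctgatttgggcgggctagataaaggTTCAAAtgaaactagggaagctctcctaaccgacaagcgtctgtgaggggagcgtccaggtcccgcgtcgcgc

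A CHR was found in the promoters of 27 of the 34 genes (79.4%), against 5854 of all 27025 genes with a promoter in the table (21.7%). A CCAAT box was found in 26 of 34 (76.5%), against 41.1% of all genes, and at least 2 of them in 18 (52.9%), against 13.3%. Both elements stood together in 23 of 34 promoters (67.6%), against 8.61% of all. An E2F site of the letters TTTGGCGC or TTTCGCGC, searched on both strands, was found in 1 of 34 (2.94%), that of Cdk1, against 0.929% of all. Among the promoters printed, that of Top2a held 4 CHR matches and 6 CCAAT boxes, and those of Cdk1 and Ccnb2 held 2 CHR matches each. The Ccnb1 window held 2 CCAAT boxes and no match to these CHR letters. The Bub3 promoter held 1 CHR and 2 CCAAT boxes. These matches describe letters in a window and not measured binding.

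The libraries held 32997720 to 48935473 reads. CPM (read counts scaled to library size by TMM) compare a gene between libraries, and TPM (corrected for transcript length as well) compare levels between genes. Ctnnb1 stood at 335, 342 and 326 CPM with Ctnnb1 siRNA and dDAVP, at 334, 306 and 309 with Ctnnb1 siRNA and vehicle, at 776, 811 and 786 with control siRNA and dDAVP, and at 766, 745 and 761 with control siRNA and vehicle. It was thus 2.37-fold lower after its siRNA with dDAVP and 2.39-fold lower with vehicle. Aqp2, the vasopressin-regulated water channel, had 155 to 302 reads in the 6 dDAVP libraries and 0 to 6 in the 6 vehicle libraries. The epithelial markers Krt18 (1710 TPM), Krt8 (1177 TPM), Epcam (506 TPM) and Cdh1 (237 TPM) and the collecting duct markers Tfcp2l1 (108 TPM) and Avpr2 (38 TPM) were expressed, while Aqp4, Elf5 and Scnn1b averaged below 0.2 TPM. Markers of cells outside the tubule were near the floor: the 2 of 6 fibroblast markers with values summed to 0.36 to 0.74 TPM over the libraries, and the 3 of 5 endothelial markers to 0.08 to 0.3 TPM. The table holds no gene with 0 reads in every library, and Col1a2, Col3a1, Dcn, Lum, Cdh5 and Kdr, which have no row, were not analysed here. Only some markers of other tubule cells were expressed. The 3 of 5 intercalated cell markers with values summed to 60.7 to 78.1 TPM, mostly Atp6v1b1 (59.7 TPM), while Slc4a1 averaged 0.005 TPM. The 3 of 4 proximal tubule markers summed to 8.32 to 13.3 TPM, mostly Lrp2 (10.4 TPM), while Cubn and Slc5a2 averaged 0.0758 and 0.0025 TPM. Foxi1, Slc26a4 and Slc34a1 of these lists have no row. With dDAVP, averaged over both siRNAs, the intercalated cell marker Atp6v0a4 rose by 0.93 (edgeR adjusted p = 3.67e-06) and Lrp2 fell by 0.23 on the log2 scale (edgeR adjusted p = 0.00446), and their part in the results below was not tested. Replicate 3 of Ctnnb1 siRNA with dDAVP stood apart: its chi-square per degree of freedom against its fellow replicates was 39.4 and 63.8, against 5.11 to 23.5 between the other replicates of a group. It also gave 1.52% of its reads to mitochondrial ribosomal RNA, against 0.831% and 0.464% in replicates 1 and 2.

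In these cells, kept without serum, all 40 genes were expressed throughout. Their lowest count in any library was 1159 reads (Cdc25c), so that none was near the limit of detection or near the filter for low counts. Mean levels over the 12 libraries ran from 23.5 TPM for Foxm1, the transcription factor that activates late cell cycle genes, to 445 TPM for Top2a, the topoisomerase that untangles sister chromatids. Foxm1 lay above 60.7% of all tested genes, and Top2a above 98.3%. After Top2a came cyclin A2 (Ccna2, 256 TPM), Ube2c (173 TPM), the spindle kinesin Kif11 (170.4 TPM) and the proliferation marker Mki67 (163 TPM). With control siRNA and vehicle the order began with Top2a at 492 ± 29.6 TPM, Ccna2 at 281 ± 24.6, Kif11 at 185 ± 12.7, Ube2c at 179 ± 17.5 and Mki67 at 173 ± 7.76, and ended with Plk1 at 34.6 ± 4.62, Ttk at 26.4 ± 1.19 and Foxm1 at 25 ± 1.42 (SD, n = 3). Top2a and Ccna2 stood clear of each other and of Kif11. Kif11, Ube2c and Mki67 differed by less than their spread, as did Ttk and Foxm1.

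The summed level of the 40 genes was lower with dDAVP under either siRNA. It was 7869, 8113 and 7820 CPM with Ctnnb1 siRNA and dDAVP, against 8220, 8336 and 8661 CPM with Ctnnb1 siRNA and vehicle, a difference of -5.6% between the means. With control siRNA it was 7575, 7837 and 7773 CPM with dDAVP, against 8165, 8350 and 8483 CPM with vehicle, a difference of -7.25%. No dDAVP library reached the lowest vehicle library of its siRNA. In TPM the differences were -9.5% with Ctnnb1 siRNA and -10.8% with control siRNA. On log2 TPM values the median change over all tested genes was itself below 0, at -0.049 with Ctnnb1 siRNA and -0.046 with control siRNA. Between siRNAs the sum was 0.877% higher with Ctnnb1 siRNA in vehicle and 2.66% higher in dDAVP by CPM. By TPM it was lower, with differences of -4.08% in vehicle and -2.69% in dDAVP, so that its sign depended on the scale. On log2 TPM values the median change over all tested genes was negative too, at -0.068 in vehicle and -0.065 in dDAVP. The mean share of reads in small structural RNAs differed between groups. It was 2.39 ± 0.74% with Ctnnb1 siRNA and dDAVP and 2.18 ± 0.0929% with Ctnnb1 siRNA and vehicle. With control siRNA it was 2.07 ± 0.41% with dDAVP and 1.59 ± 0.319% with vehicle (SD, n = 3 each). Under either siRNA the dDAVP and vehicle libraries overlapped in this share. Its part in the results was not tested.

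**Figure D1:**
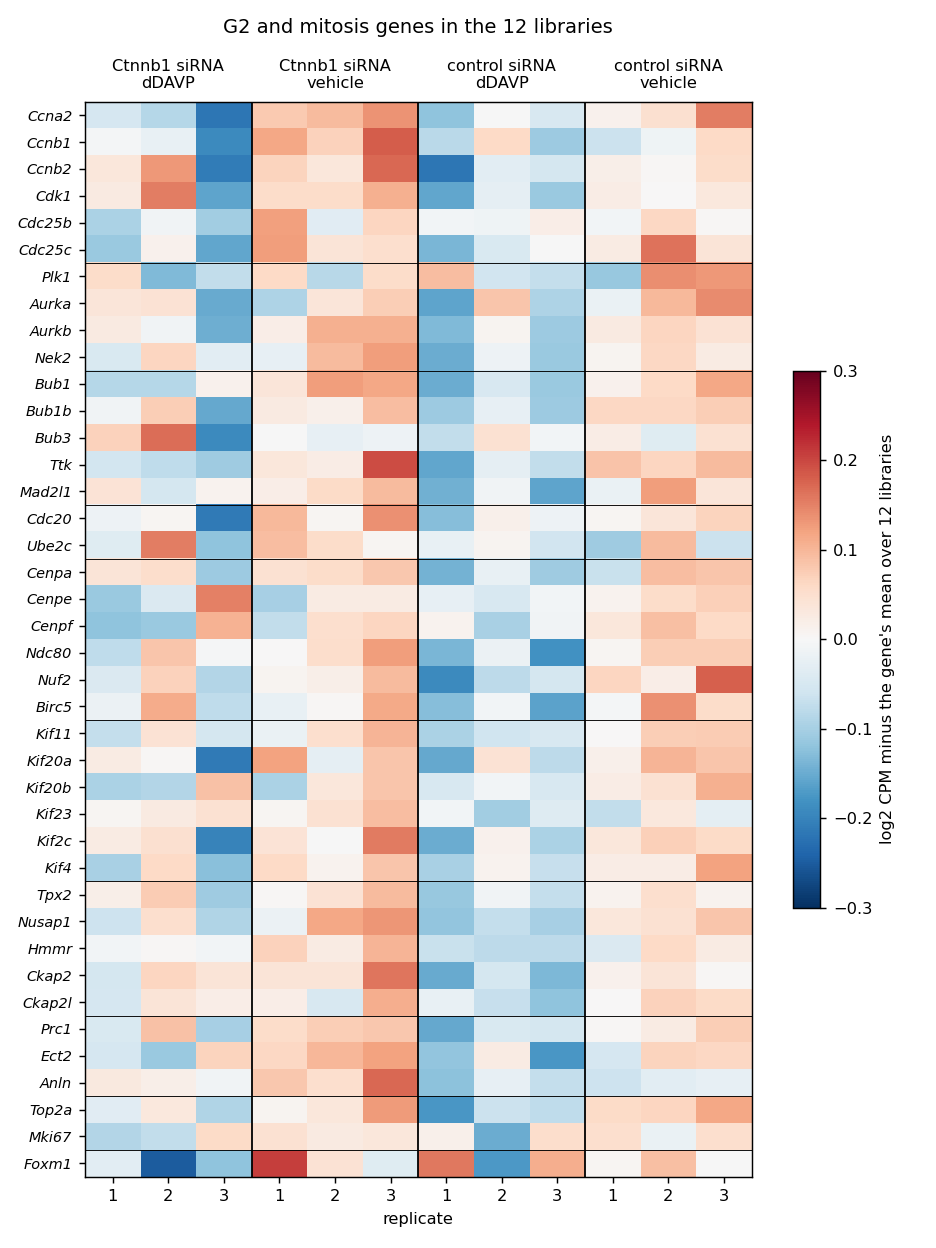
Each row is 1 of the 40 genes, grouped by role, and each column 1 of the 12 libraries; colour gives the gene's log2 CPM minus its mean over the 12 libraries, on a scale from -0.3 to 0.3. Most dDAVP columns are mainly blue and the vehicle columns mostly red. Replicate 2 of Ctnnb1 siRNA with dDAVP is an exception, with more red rows than blue. Replicate 3 of Ctnnb1 siRNA with dDAVP holds both deep blue and red rows.

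As the map of all libraries shows, the genes of 1 library tended to deviate from their group means in the same direction. In replicate 1 of control siRNA with vehicle, 36 of the 40 genes lay below the mean of their group, and in replicate 3 of Ctnnb1 siRNA with vehicle 36 lay above it. With control siRNA and dDAVP, 32 lay above the mean in replicate 2 and 31 below it in replicate 1. The median deviation from the group mean ran from -0.058 (replicate 3 of Ctnnb1 siRNA with dDAVP) to 0.061 log2 CPM (replicate 2 of the same group). The members are therefore not independent measurements of a treatment, and the comparisons below rest on libraries.

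Averaged over both siRNAs, dDAVP lowered 5 of the 40 genes: Ccna2, the checkpoint kinases Bub1 and Ttk, the spindle protein Nusap1 and Top2a. None was called higher. Of all 16508 tested genes 2.54% were called lower and 4.33% higher (edgeR quasi-likelihood test, Benjamini-Hochberg adjusted p under 0.05 over all tested genes). The log2 fold change was negative for 39 of the 40, against 51.6% of all tested genes, and its median was -0.098, a difference of -6.57%, against -0.005 over all tested genes. At an unadjusted p under 0.05, 23 were lower and none higher, against 9.11% of all tested genes lower and 9.94% higher. The 95% interval of the change lay wholly below 0 for 23 genes, and over the 40 the bounds reached from -16.3% to 8.3%. DESeq2 called the same 5 genes, and 543 of all 16507 lower. Voom called 14, against 810 of all 16508 genes lower, and the log2 TPM values called 23, against 703 of all lower. When each library was shifted to the same median of log2 TPM, 2 were called, Ccna2 and Bub1, against 307 of all genes lower. The labels do not say whether replicates were separate cultures, so p-values measure the spread between these libraries only.

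**Figure D2:**
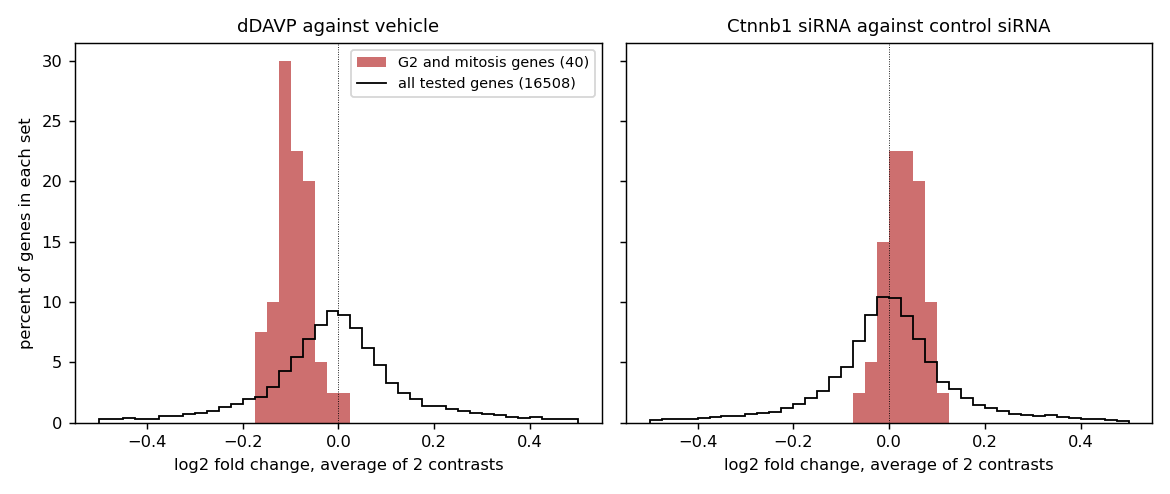
The log2 fold change averaged over 2 contrasts is on the horizontal axis and the percent of genes in bins on the vertical axis, for the 40 genes (red) and all 16508 tested genes (black line; 5.96% of them in the dDAVP panel and 4.94% in the siRNA panel lie outside the range drawn). With dDAVP the 40 genes sit left of 0 around their median of -0.098, and with Ctnnb1 siRNA they lie around 0.028. On log2 TPM values the latter median is -0.053, against -0.066 over all tested genes, and with equal medians of the libraries it is 0.029.

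With control siRNA alone, edgeR called none of the 40 (2.83% of all tested genes were called, 0.915% lower). The direction was as uniform: 39 were negative, against 51.3% of all tested genes, with a median of -0.12, or -7.94%. At an unadjusted p under 0.05, 17 were lower and none higher, against 7.24% of all tested genes lower and 7.37% higher. In 25 genes all 3 dDAVP libraries lay below all 3 vehicle libraries, against 12% of all tested genes. DESeq2 called 1 lower (Top2a), against 258 of all 16507 genes lower. Voom called 9 lower, against 573 of all 16508, and the log2 TPM values 3, against 231 of all. Without replicate 3 of Ctnnb1 siRNA with dDAVP, which is in neither group compared but enters the shared estimate of spread and the filter, 3 were called lower (Bub1, Nuf2 and Top2a), against 330 of all 16822 genes then tested.

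With Ctnnb1 siRNA, Ccna2 alone was called lower, against 0.697% of all tested genes. The log2 fold change was negative for 38 of the 40, against 51.5% of all, with a median of -0.072, or -4.87%. At an unadjusted p under 0.05, 10 were lower and none higher, against 5.91% of all tested genes lower and 7.74% higher. The groups did not overlap in 7 genes, against 8.3% of all tested genes that were fully lower. With both siRNAs 5 genes were fully separated, namely Ccna2, Cdc25c, Bub1, Ttk and Hmmr, against 2.73% of all tested genes. Without replicate 3 of Ctnnb1 siRNA with dDAVP, 34 of the 40 were negative in the Ctnnb1 siRNA comparison. The median was then -0.059, and no member was called. Over the fits that each left out 1 library, this median ran from -0.107 to -0.054.

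**Figure D3:**
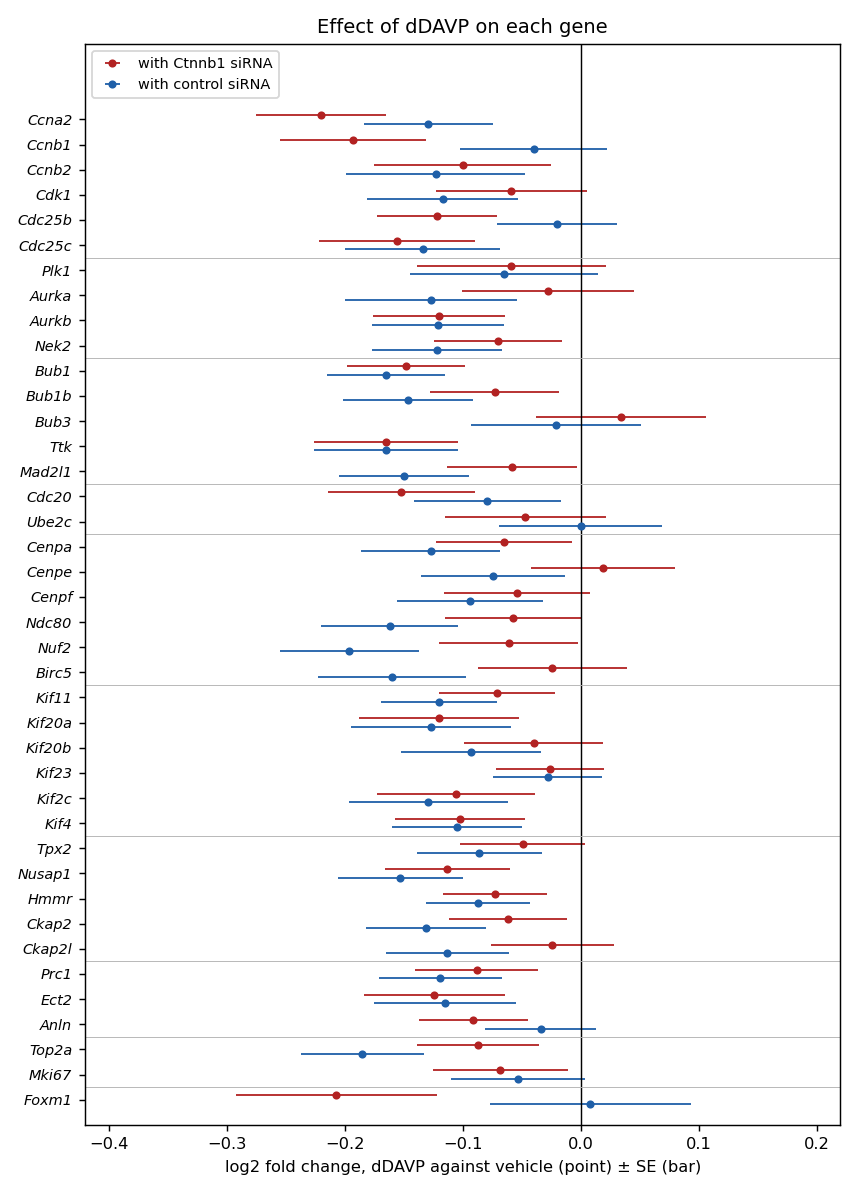
Each gene's log2 fold change for dDAVP against vehicle (point) and its SE (bar) are drawn for cells with Ctnnb1 siRNA (red) and with control siRNA (blue), genes grouped by role from top to bottom. Nearly all points lie left of 0, between -0.22 and 0.034.

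The cyclins and their kinase came first in the order of mitosis. Ccna2, which drives S phase and the approach to mitosis, had 422, 412 and 376 CPM with Ctnnb1 siRNA and dDAVP, against 462, 467 and 480.4 with Ctnnb1 siRNA and vehicle. With control siRNA it had 402, 437 and 423 CPM with dDAVP, against 441, 452 and 486 with vehicle. All 6 dDAVP libraries lay below all 6 vehicle libraries. Its log2 fold change was -0.22 (SE 0.055, edgeR adjusted p = 0.0433) with Ctnnb1 siRNA and -0.13 (SE 0.055, adjusted p = 0.283) with control siRNA. Averaged, it fell by 0.17 on the log2 scale (SE 0.039, adjusted p = 0.0113), a difference of -11.4%, and this call held in all 22 alternatives run, with adjusted p between 0.000486 and 0.0453. The call with Ctnnb1 siRNA alone was lost in 12 of 23 alternatives, at adjusted p up to 0.153. Among them were single libraries: without Ctnnb1 siRNA vehicle replicates 1, 2 and 3 the adjusted p was 0.104, 0.15 and 0.153, without Ctnnb1 siRNA dDAVP replicates 2 and 3 it was 0.0633 and 0.0904, without control siRNA vehicle replicates 1 and 2 it was 0.0532 and 0.0672, and without control siRNA dDAVP replicate 3 it was 0.0762. The annotated exons of Ccna2 overlap those of Exosc9 by up to 428 nucleotides, where reads may not be told apart.

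Ccnb1, the cyclin whose complex with CDK1 triggers mitotic entry, had 173, 171 and 152 CPM with Ctnnb1 siRNA and dDAVP, against 188, 182 and 197 with Ctnnb1 siRNA and vehicle. With control siRNA it had 164, 181 and 161 CPM with dDAVP, against 166, 172 and 181 with vehicle. The groups were separate with Ctnnb1 siRNA and overlapped with control siRNA. The log2 fold changes were -0.19 (SE 0.062, edgeR adjusted p = 0.133) with Ctnnb1 siRNA and -0.040 (SE 0.062, adjusted p = 0.83) with control siRNA, neither called. Cdk1 itself had 296, 323 and 260.2 CPM with Ctnnb1 siRNA and dDAVP, against 302, 302 and 313 with Ctnnb1 siRNA and vehicle. With control siRNA Cdk1 had 261, 285 and 269 CPM with dDAVP, against 295, 291 and 297 with vehicle. Here the groups were separate with control siRNA and overlapped with Ctnnb1 siRNA. The average log2 fold change of Cdk1 was -0.088 (SE 0.046, edgeR adjusted p = 0.319). The phosphatase genes Cdc25c and Cdc25b, whose products activate CDK1, had average log2 fold changes of -0.15 and -0.071, and Ccnb2 had -0.11, none of them called. Exons of Cdc25c overlap those of Gm3550 by up to 623 nucleotides, and exons of Cdc25b overlap Spef1 by up to 92.

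Among the 4 mitotic kinases none was called, and all 4 were negative in both siRNAs. Plk1, the Polo-like kinase of entry and centrosome maturation, had 37.1, 32.6 and 33.9 CPM with Ctnnb1 siRNA and dDAVP, against 37.2, 33.7 and 37.1 with Ctnnb1 siRNA and vehicle. With control siRNA Plk1 had 38.1, 34.3 and 34 CPM with dDAVP, against 33, 39.3 and 39.1 with vehicle. Its groups overlapped with both siRNAs, and its average log2 fold change was -0.062 (SE 0.056, edgeR adjusted p = 0.627). Aurka, the kinase of the spindle poles, had 90.9, 91.4 and 79.9 CPM with Ctnnb1 siRNA and dDAVP, against 83.2, 91 and 93.3 with Ctnnb1 siRNA and vehicle. With control siRNA Aurka had 79.5, 94 and 83.2 CPM with dDAVP, against 87.5, 94.9 and 97.9 with vehicle. These groups overlapped too, at an average of -0.078 (SE 0.052, edgeR adjusted p = 0.468). Aurkb, the kinase of the chromosomal passenger complex, averaged -0.12 (SE 0.04, edgeR adjusted p = 0.0877), and the centrosome kinase gene Nek2 averaged -0.096.

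The spindle checkpoint held the widest contrast within a role, with Bub1 and Ttk called lower and Bub3 the 1 gene of the list with a positive average. Bub1, a kinase that recruits checkpoint proteins to kinetochores, had 114, 114 and 122 CPM with Ctnnb1 siRNA and dDAVP, against 124, 132 and 131 with Ctnnb1 siRNA and vehicle. With control siRNA Bub1 had 109, 117 and 112 CPM with dDAVP, against 122, 126 and 131 with vehicle. The groups were separate with both siRNAs. Bub1 fell by 0.16 on the log2 scale on average (SE 0.036, edgeR adjusted p = 0.0128), and the call held in 21 of 22 alternatives, the exception being the fit that leaves out replicate 3 of control siRNA with vehicle (adjusted p = 0.0511). Ttk, the kinase also known as MPS1 that starts checkpoint signalling, had 34.2, 33.7 and 33 CPM with Ctnnb1 siRNA and dDAVP, against 36.4, 36.1 and 40.7 with Ctnnb1 siRNA and vehicle. With control siRNA Ttk had 31.9, 34.9 and 33.8 CPM with dDAVP, against 37.7, 37.2 and 38 with vehicle. All 6 dDAVP libraries lay below all 6 vehicle libraries. Ttk fell by 0.17 on the log2 scale (SE 0.043, edgeR adjusted p = 0.0297), with the same -0.17 under each siRNA. Its call was lost without any of control siRNA vehicle replicates 1, 2 and 3 (adjusted p = 0.0609, 0.0595 and 0.0826), control siRNA dDAVP replicates 1 and 3 (0.0767 and 0.071) and Ctnnb1 siRNA vehicle replicate 3 (0.0942).

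Bub3, the partner that docks BUB1 and BUBR1 on kinetochores, had 127, 136 and 106 CPM with Ctnnb1 siRNA and dDAVP, against 121, 119 and 119.8 with Ctnnb1 siRNA and vehicle. With control siRNA Bub3 had 115, 125 and 120.3 CPM with dDAVP, against 123, 118 and 125 with vehicle. Its dDAVP libraries lay on both sides of the vehicle libraries, and replicate 3 of Ctnnb1 siRNA with dDAVP was the lowest of all 12. The average log2 fold change was 0.006 (SE 0.051, edgeR adjusted p = 0.971) and its 95% interval ran from -0.10 to 0.12, while on log2 TPM values it was -0.052. Bub1b, which encodes BUBR1 of the checkpoint complex, had 214, 227 and 194 CPM with Ctnnb1 siRNA and dDAVP, against 219.8, 218 and 229.9 with Ctnnb1 siRNA and vehicle. With control siRNA Bub1b had 200.1, 212 and 199.8 CPM with dDAVP, against 225, 225 and 227 with vehicle. The control siRNA groups were separate, and the Ctnnb1 siRNA groups overlapped. Its average was -0.11 (SE 0.039, edgeR adjusted p = 0.118), and that of Mad2l1, the inhibitor of CDC20, was -0.10 (edgeR adjusted p = 0.14).

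**Figure D4:**
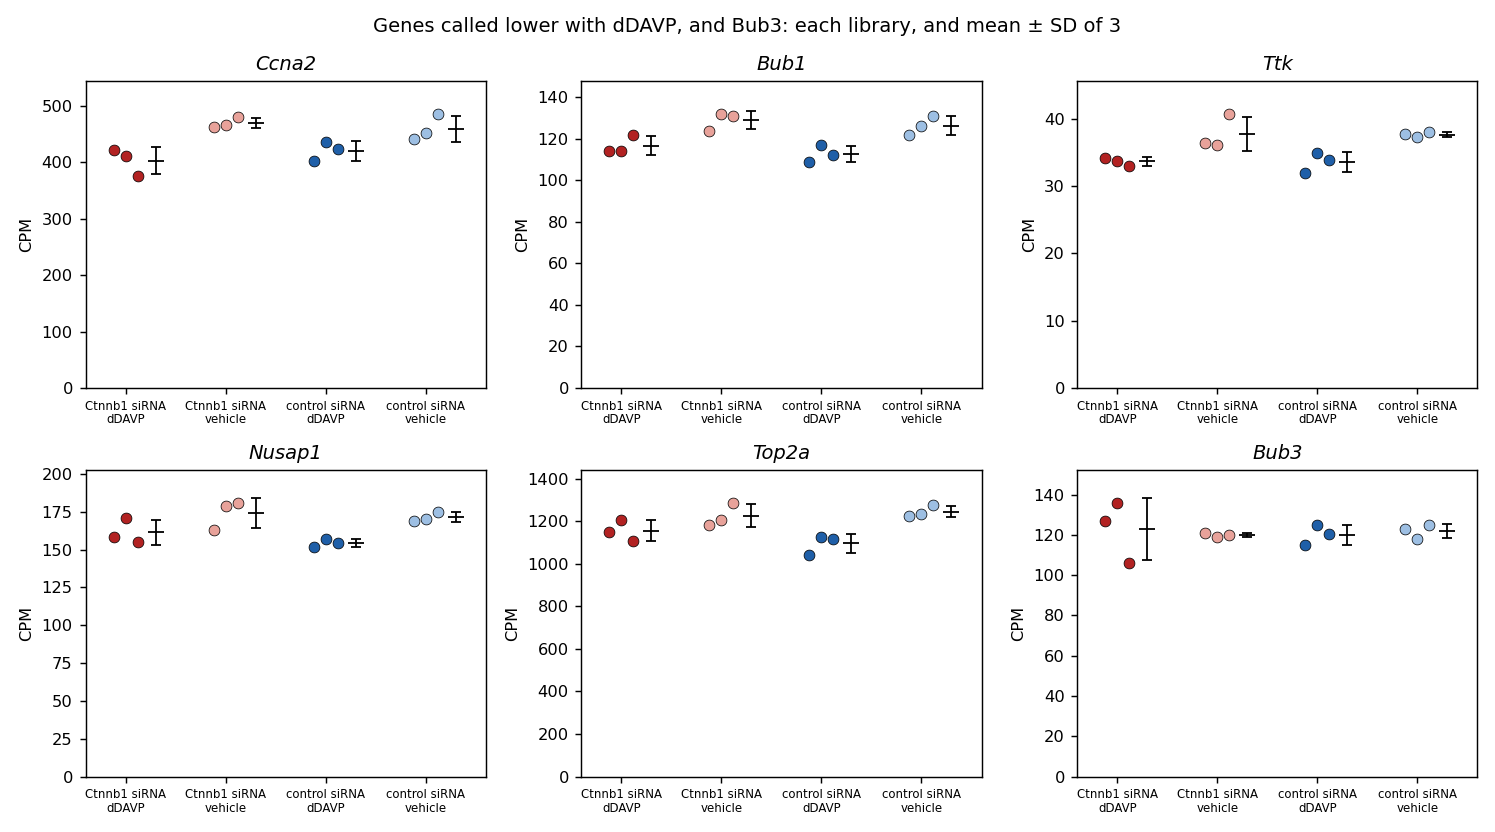
CPM of the 5 genes called lower with dDAVP on average, and of Bub3, in each of the 12 libraries (points, replicates 1 to 3 from left to right) with the mean and SD of each group of 3 (bars), on axes that start at 0. The dDAVP points of Ccna2, Bub1 and Ttk lie below the vehicle points of the same siRNA, and those of Bub3 lie on both sides.

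Of the genes that trigger anaphase, Cdc20 had 134, 136 and 117 CPM with Ctnnb1 siRNA and dDAVP, against 145, 136 and 149 with Ctnnb1 siRNA and vehicle. With control siRNA Cdc20, the activator of the APC/C, had 124, 137 and 134 CPM with dDAVP, against 136, 139 and 142 with vehicle. Its groups overlapped with both siRNAs, at an average of -0.12 (SE 0.044, edgeR adjusted p = 0.152). Ube2c, the ubiquitin-conjugating enzyme of the APC/C, had 79.9, 91.2 and 75.4 CPM with Ctnnb1 siRNA and dDAVP, against 87.4, 85.1 and 82.3 with Ctnnb1 siRNA and vehicle. With control siRNA Ube2c had 80.7, 82.4 and 78.7 CPM with dDAVP, against 76.1, 87.5 and 78.4 with vehicle. It was among the genes least displaced, at 0 with control siRNA (SE 0.069) and -0.047 with Ctnnb1 siRNA (SE 0.068), and its groups overlapped.

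The 6 centromere and kinetochore genes were all negative with control siRNA, where 5 of the 6 had dDAVP libraries fully below vehicle, and none was called. Nuf2, a subunit of the NDC80 complex that grips microtubules, had 78.5, 84.9 and 76.2 CPM with Ctnnb1 siRNA and dDAVP, against 81.4, 81.9 and 86.5 with Ctnnb1 siRNA and vehicle. With control siRNA Nuf2 had 70.9, 76.6 and 78.1 CPM with dDAVP, against 84.7, 82.1 and 91.6 with vehicle. Its log2 fold change with control siRNA, -0.20 (SE 0.059, edgeR adjusted p = 0.105), was the lowest of the list there, against -0.061 with Ctnnb1 siRNA. Cenpf, a large kinetochore protein, had 424, 427 and 496 CPM with Ctnnb1 siRNA and dDAVP, against 438, 478 and 482 with Ctnnb1 siRNA and vehicle. With control siRNA Cenpf had 465, 431 and 458 CPM with dDAVP, against 472, 491 and 481 with vehicle. Only the control siRNA groups were separate, and replicate 3 of Ctnnb1 siRNA with dDAVP was the highest of all 12. Cenpe, the kinetochore motor that aligns chromosomes, had 297, 311 and 356 CPM with Ctnnb1 siRNA and dDAVP, against 299, 326 and 326 with Ctnnb1 siRNA and vehicle. With control siRNA Cenpe had 315, 309.9 and 319 CPM with dDAVP, against 323, 333 and 337 with vehicle. Again replicate 3 of Ctnnb1 siRNA with dDAVP was the highest, and the log2 fold changes were 0.019 (SE 0.061) with Ctnnb1 siRNA and -0.074 (SE 0.061) with control siRNA. Cenpa (the centromeric histone), Ndc80 and Birc5 (survivin) averaged -0.096, -0.11 and -0.092.

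The 6 kinesins were negative with both siRNAs, with no call. Kif11, the motor that pushes spindle poles apart, had 399, 432 and 404 CPM with Ctnnb1 siRNA and dDAVP, against 413, 434 and 450 with Ctnnb1 siRNA and vehicle. With control siRNA Kif11 had 392, 402 and 405 CPM with dDAVP, against 419, 441 and 442 with vehicle. The control siRNA groups were separate, and the average log2 fold change was -0.095 (SE 0.035, edgeR adjusted p = 0.127). The other 5 averaged -0.12 (Kif20a, of the cleavage furrow), -0.12 (Kif2c, which depolymerises microtubules), -0.10 (Kif4, of chromosome arms and midzone), -0.066 (Kif20b) and -0.027 (Kif23, of the central spindle). Exons of Kif20a overlap Cdc23, and those of Kif4 overlap Pdzd11.

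Of the 5 spindle microtubule proteins Nusap1, which bundles microtubules near chromosomes, was called lower. It had 158, 171 and 155 CPM with Ctnnb1 siRNA and dDAVP, against 163, 179 and 181 with Ctnnb1 siRNA and vehicle. With control siRNA Nusap1 had 152, 157 and 154 CPM with dDAVP, against 169, 170.4 and 175 with vehicle. The groups were separate with control siRNA and overlapped in 1 vehicle library with Ctnnb1 siRNA. It fell by 0.13 on the log2 scale on average (SE 0.037, edgeR adjusted p = 0.0432), a call kept in 11 of 22 alternatives. It was lost without control siRNA vehicle replicates 1, 2 and 3 (adjusted p = 0.0689, 0.0919 and 0.13), control siRNA dDAVP replicates 1 and 3 (0.0963 and 0.114), Ctnnb1 siRNA vehicle replicates 2 and 3 (0.126 and 0.131), and Ctnnb1 siRNA dDAVP replicates 1 and 3 (0.0944 and 0.0574), each left out alone. The annotated exons of Nusap1 overlap those of Oip5 by up to 172 nucleotides. Tpx2 (the activator of Aurora A), Hmmr, Ckap2 and Ckap2l averaged -0.067, -0.080, -0.096 and -0.069. With control siRNA all 5 were fully below vehicle.

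For cytokinesis, Prc1 (which bundles the central spindle), Ect2 (the RhoA exchange factor) and Anln (anillin, the furrow scaffold) averaged -0.10, -0.12 and -0.062, with no call. Of the chromosome genes, Top2a had 1151, 1205 and 1106 CPM with Ctnnb1 siRNA and dDAVP, against 1184, 1207 and 1287 with Ctnnb1 siRNA and vehicle. With control siRNA Top2a had 1043, 1126 and 1117 CPM with dDAVP, against 1226, 1232 and 1277 with vehicle. The groups were separate with control siRNA and overlapped with Ctnnb1 siRNA. Top2a fell by 0.14 on the log2 scale on average (SE 0.037, edgeR adjusted p = 0.0352). This call was kept in 12 of 22 alternatives and was lost without control siRNA vehicle replicates 1, 2 and 3 (adjusted p = 0.0538, 0.0791 and 0.112), control siRNA dDAVP replicates 1 and 3 (0.0909 and 0.0741), Ctnnb1 siRNA vehicle replicates 2 and 3 (0.0728 and 0.116) and Ctnnb1 siRNA dDAVP replicate 1 (0.0657), each left out alone. Mki67 had 781, 789 and 863 CPM with Ctnnb1 siRNA and dDAVP, against 856, 845 and 850.3 with Ctnnb1 siRNA and vehicle. With control siRNA Mki67 had 838, 748 and 860.1 CPM with dDAVP, against 859, 819 and 859.6 with vehicle. Its groups overlapped throughout, at an average of -0.061 (SE 0.04, edgeR adjusted p = 0.468).

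Foxm1 had 50.7, 43.6 and 47.7 CPM with Ctnnb1 siRNA and dDAVP, against 59.9, 53.4 and 50.6 with Ctnnb1 siRNA and vehicle. With control siRNA Foxm1 had 57.9, 46 and 55.9 CPM with dDAVP, against 52.1, 55.2 and 51.8 with vehicle. Its groups overlapped with both siRNAs. The log2 fold changes were -0.21 (SE 0.085, edgeR adjusted p = 0.279) with Ctnnb1 siRNA and 0.008 (SE 0.085, adjusted p = 0.982) with control siRNA. The difference between them, -0.22 (SE 0.121, edgeR adjusted p = 0.918), ranked first by interaction p among the 40 genes.

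No interaction of siRNA and dDAVP was called in the list, and edgeR called none among all 16508 genes (0%). None of the 40 had an unadjusted interaction p under 0.05 in edgeR, against 5.02% of all tested genes, the log2 interaction was negative in 11 of 40, against 48.9% of all, and DESeq2 called none of the 40 and 1 of all genes. The 95% intervals of the interaction reached from -28% to 25.3% over the list. Those are the outermost bounds of the 40 intervals, and the median SE was 0.082 on the log2 scale. For each gene, differences between the dDAVP effects in the 2 siRNA backgrounds within its own interval were not excluded by these libraries. A call with one siRNA and none with the other, as for Ccna2, was therefore not shown to be a difference.

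Ctnnb1 siRNA against control siRNA gave no called member in vehicle (0.43% of all tested genes called), in dDAVP (0.267%) or on average (1.85%) with edgeR. At an unadjusted p under 0.05, 1 gene was higher in dDAVP (6.13% of all tested genes), 1 in vehicle (4.17%) and 3 on average (6.78%), and none was lower. The 3 were Anln, Ckap2 and Kif23. Anln, named after its values were seen, had 358, 355 and 348 CPM with Ctnnb1 siRNA and dDAVP, against 322, 345 and 334 with control siRNA and dDAVP. In vehicle Anln had 371, 363 and 395 CPM with Ctnnb1 siRNA, against 336, 343 and 345 with control siRNA. Every Ctnnb1 siRNA library lay above every control siRNA library of its treatment. Its average log2 fold change was 0.11 (SE 0.033, edgeR adjusted p = 0.11), and it was called higher by DESeq2 (4.08% of all genes called), by voom (5.6%) and without replicate 3 of Ctnnb1 siRNA with dDAVP (3.6%). The groups did not overlap, with Ctnnb1 siRNA above, in 4 genes in dDAVP (7.26% of all tested genes) and in 4 in vehicle (8.95%). Negative log2 fold changes numbered 9 of 40 in dDAVP, 15 in vehicle and 10 on average, against 49.6%, 51% and 50.3% of all tested genes. The medians over the list were 0.019 in vehicle, 0.045 in dDAVP and 0.028 on average, and on log2 TPM values they were -0.066, -0.040 and -0.053, with medians over all genes of -0.068, -0.065 and -0.066. The sign thus differed between CPM and unshifted log2 TPM values, where the median over all genes was negative too. When each library was shifted to the same median of log2 TPM, the list medians were 0.011 in vehicle, 0.047 in dDAVP and 0.029 on average. Those over all genes were then 0.008, 0.021 and 0.016. The 95% intervals for the average effect reached from -12.5% to 14.2% over the 40 genes.

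Other genes of the cell cycle, in lists that share no member with the 40, were read in the same comparison. Of 45 other G2 and mitosis genes, 11 were called lower with dDAVP on average and none higher, 42 were negative, and the median was -0.11. The lowest adjusted p-values were those of Ncapd2, a condensin subunit (log2 fold change -0.14, edgeR adjusted p = 0.0122), Spc25, of the NDC80 complex (-0.16, 0.0147), Sgo2a, a protector of cohesin (-0.13, 0.0165), and Ccnf, cyclin F (-0.17, 0.0175). Of 35 S phase genes none was called, 18 were negative and the median was 0. Their median was 0.030 with Ctnnb1 siRNA, where 24 were positive, and -0.027 with control siRNA, where 24 were negative; the interaction was positive in 27, with none at an unadjusted p under 0.05. None of the 14 APC/C subunits (median -0.033), none of the 13 genes of the MuvB and RB families (median -0.035) and none of the 12 controls of mitotic entry (median -0.060) was called on average in edgeR. At an unadjusted p under 0.05 these 4 lists held 4, 2, 1 and 1 genes, against 3145 of all 16508. With control siRNA the checkpoint kinase gene Chek2 was called lower among the last (-0.23, edgeR adjusted p = 0.049). Among 12 tested genes of the 14 listed for G1 and CDK inhibitors, Myc alone was called, and it rose by 0.35 on the log2 scale (SE 0.059, edgeR adjusted p = 0.00134). Of 16 p53 targets Sesn2 (0.46) and Btg2 (0.36) rose, and Pmaip1 and Sesn1 fell by 0.23 and 0.23 on the log2 scale (edgeR adjusted p = 0.000372, 0.0015, 0.0113 and 0.0134 in that order). The epithelial keratins Krt8, Krt18 and Krt19 rose by 0.23, 0.31 and 0.31 in the same comparison, while the other 2 of the 5 epithelial markers, Cdh1 and Epcam, were negative and not called, the lower of them at -0.082.

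**Figure D5:**
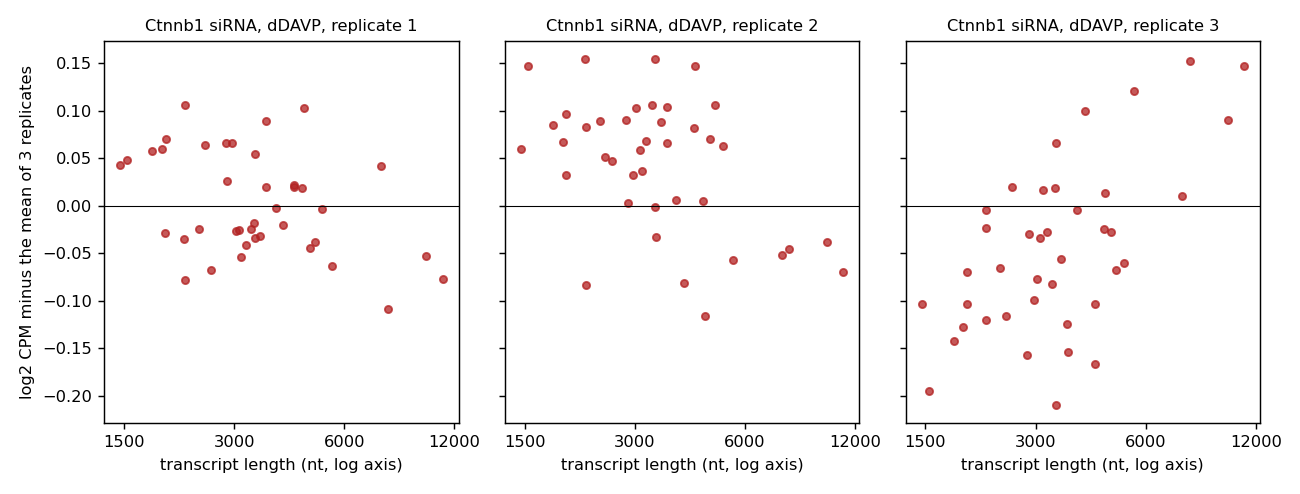
For the 3 libraries of Ctnnb1 siRNA with dDAVP, each of the 40 genes is placed by transcript length in nucleotides (log axis) and by its log2 CPM minus the mean of the 3 replicates. In replicate 3 long transcripts lie above short ones, with a slope of 0.081 log2 units per doubling of length, and replicates 1 and 2 show the opposite, shallower order. The deviations of a gene from the mean of its 3 replicates cancel, so the slopes of the 3 panels are not independent.

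Part of the scatter among the 40 genes went with transcript length. In replicate 3 of Ctnnb1 siRNA with dDAVP the deviation of a gene from its group mean had a Spearman rho of 0.5 with length over the 40 genes, and 0.32 over 14603 genes with a length. In the other 11 libraries rho over the 40 genes ran from -0.37 to 0.43, and over all genes from -0.33 to 0.3, so a trend over all genes of that size was not particular to replicate 3. Genes of 1 library share its RNA and preparation, so these values describe that library. The longest transcripts, Cenpf (11130 nucleotides), Mki67 (10061) and Cenpe (7910), had their highest dDAVP value there, whereas Ccnb2 (1531 nucleotides) had 95.3, 102 and 80.5 CPM in replicates 1, 2 and 3. With an offset for length, chosen after the data were seen, the averaged dDAVP comparison gave 5 genes called lower. Ccna2, Bub1, Ttk and Nusap1 were among the 5 named above, and Aurkb took the place of Top2a. Of all 16508 genes 489 were then called lower, against 419 in the main fit. Without replicate 3 of Ctnnb1 siRNA with dDAVP the averaged comparison called Ccna2, Bub1, Ttk, Ect2 and Top2a lower, against 509 of all 16822 genes then tested. In that fit 38 of the 40 genes were negative.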

How the data were processed

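RNA from mpkCCDc11 cells was sequenced in 12 libraries, 3 per group. Per the labels' protocols, RNA was extracted with TRIzol, depleted of ribosomal RNA and made into stranded libraries. Per the submitters' processing notes, FastQC, Trimmomatic, HISAT2, StringTie and DESeq2 were used, on GRCm38 (mm10). Versions and the use of strand in counting are not given in the sources used here, so reads of genes with overlapping exons may not be told apart. Besides the overlaps named above, exons of Prc1 overlap Rccd1 by up to 670 nucleotides. Those of Ube2c overlap Tnnc2 by up to 144, those of Foxm1 overlap Tex52 by up to 144, and those of Cdc20 overlap Elovl1 by up to 53. The table deposited by the authors gives unnormalised read counts per gene and TPM values, per the file headers. The counts sum to 32997720 to 48935473 per library.

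Counts were analysed here with edgeR 4.0.16 in R 4.3.3: filterByExpr (16508 genes, 99.968% of reads), TMM scaling and a robust quasi-likelihood fit with 1 coefficient per group on all 12 libraries, with adjustment over all tested genes and calls at an adjusted p under 0.05. The common coefficient of variation was 8.26%. Intervals are 95% intervals from the fitted SE. TPM values served for levels and for an alternative on log2(TPM + 1) with limma 3.58.1. Other alternatives used DESeq2 1.42.0, voom with sample weights, 2 other scalings, 2 other filters, only the groups compared, the replicate number as a block, and each library left out. Equal medians of log2 TPM and an offset for transcript length were added after seeing the data. The fit was also run on simulated counts with known fold changes. That outcome is not reported here and is not used for the results above.

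The members and lists were chosen with earlier results of these data known. Values in every library are given for 12 genes chosen by role, every called gene, and the 2 lowest and 2 highest log2 fold changes of each dDAVP contrast. Up to 4 called genes per other list are named by adjusted p. The leukocyte marker list is not reported here. Promoter sequences and coordinates are from RefSeq on GRCm38.p6.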

Additional observations from a re-analysis of the deposited data

How the results depend on the processing

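The count of genes called lower with dDAVP averaged over both siRNAs, 5, was 14 with voom, 23 on log2 TPM values and 2 on log2 TPM with equal medians. It was 4 without a filter, against 347 of all 25208 genes lower, and 1 to 10 when 1 library was left out. The count was 1 without control siRNA vehicle replicate 3, against 250 of all 16806 genes lower. Without Ctnnb1 siRNA dDAVP replicate 2 it was 10, against 414 of all 16831. With control siRNA the count of 0 became 1 with DESeq2, 9 with voom and 3 on log2 TPM values, and 0 to 3 when 1 library was left out. With Ctnnb1 siRNA the count of 1 became 2 with voom, against 223 of all 16508 genes lower. It was 0 without a filter, with only the groups compared, on log2 TPM with equal medians and with the replicate block. When 1 library was left out it was 0 to 1. For the averaged siRNA effect the count of 0 became 1 with DESeq2 and voom, and 0 to 1 when 1 library was left out. The average log2 fold change of Bub3, 0.006, became -0.052 on log2 TPM values and -0.004 with equal medians, and ran from -0.031 to 0.055 when 1 library was left out. On log2 TPM values the median over all genes moved to -0.048 for the averaged dDAVP effect, and that of the list was then -0.16. Over all tested genes the averaged dDAVP calls were 714 higher and 419 lower, and on log2 TPM values 352 higher and 703 lower. The cause of these changes was not tested. In no alternative was a member called higher with dDAVP, and the median of the list stayed negative in all dDAVP comparisons. Libraries of the same replicate number did not deviate together (r from -0.086 to 0.072 over 18 pairs, 3 of 12 libraries closest to their own number). The replicate block gave 5 members called on average, against 371 of all 16508 genes lower, 0 with control siRNA and 0 with Ctnnb1 siRNA. With 3 libraries per group the median SE for 1 siRNA was 0.058 on the log2 scale, and the member called there, Ccna2 with Ctnnb1 siRNA, had a log2 fold change of -0.22, while the medians of the list were -0.072 with Ctnnb1 siRNA and -0.12 with control siRNA.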
